A study of Caenorhabditis elegans with 2 samples.

Results

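CDC-48, known as p97 or VCP in mammals and Cdc48 in yeast, is an AAA ATPase that pulls ubiquitylated proteins out of complexes, membranes and chromatin so that they can be degraded or recycled. Adaptor proteins bring substrates to it, chiefly the UFD-1 and NPL-4 pair, and further cofactors such as UFD-2, a ubiquitin chain elongating enzyme, and UFD-3, the relative of yeast Doa1 and human PLAA, act on the ubiquitin chains. In the *Caenorhabditis elegans* germline and early embryo this machinery is known for removing the licensing factor CDT-1 and the replicative helicase from chromatin. The 7 genes examined here were taken as a list: *cdc-48.1* and *cdc-48.2*, which encode 2 forms of the ATPase, *ufd-1*, *npl-4.1*, *npl-4.2*, *ufd-2* and *ufd-3*. They are 7 of 19973 protein-coding nuclear genes. For each gene, the regions with a summit within 1000 bp of the annotated gene start were taken from every list and ranked by the deposited signal.

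The lists come from ChIP-seq of LIN-35, the retinoblastoma-like pocket protein of the worm and a subunit of the DREAM repressor complex. Whole young adults of both sexes were used, from strain YL402, which carries the *unc-119* allele ed3 on chromosome III and the integrated transgene vrIs56. In that transgene the *pie-1* promoter, which is active in the germline, drives LIN-35 with a GFP and FLAG tag, and an *unc-119* copy serves as the marker, so the tagged protein is expected chiefly in germ cells and its somatic level was not measured. The 2 libraries, biological replicates 2 and 3 with 1 technical replicate each, form a single group, so no conditions were compared. The authors deposited 20291 candidate regions for replicate 2, 30000 for replicate 3 and 30000 for the pool of both, of which 396 passed their irreproducible discovery rate (IDR) threshold. Sequencing depth is not known from the lists. The genes were chosen by name with the deposited signal and ranks of *cdc-48.1* already known, so ranks and counts are given as a description and no test was made.

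LIN-35 signal was very unevenly spread over the group. One of the genes for the ATPase, *cdc-48.1*, had one of the strongest regions of the nuclear genome, and *ufd-3* also had a thresholded peak. Regions near *ufd-2* and *ufd-1* were far weaker, and *cdc-48.2* had no pooled region. The pooled list was deposited as peaks and background together, so a low-ranked region may be background. Its −log10 q-value was 3.22 at *cdc-48.1* and *ufd-3*, the highest in that list. At the best pooled regions of *ufd-2* and *ufd-1* it was 1.74 and 0.30. No region of any list had its summit within 1000 bp of *npl-4.1* or *npl-4.2*, where nearly identical sequence limits what short reads can show.

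The DNA that DREAM contacts is known to hold E2F sites, bound by the EFL-1 and DPL-1 pair, and the cell cycle genes homology region (CHR), bound by LIN-54. The E2F motif searched was TTNNCGC with C or G at each N. The CHR motif was TTNGAA with C or T at its N, and both were searched on both strands. The following 30-base stretches are shown because that of *ufd-3* holds an E2F match near its peak summit and that of *ufd-2*, at a summit below the threshold, has neither motif within 100 bp. Each is on the strand of its gene, from the RefSeq genome of build WBcel235, which has ce11 coordinates. Capitals mark the CHR match and the E2F match that follows it at *ufd-3*.
*ufd-3*, chrII:9940589-9940618, plus strand: taaatTTTGAATTCCCGCaaatttgcctac
*ufd-2*, summit, chrII:8062505-8062534, plus strand: tctatctcttgcgcgcgcggtgcaaatgtc

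The *cdc-48.1* gene lies on the minus strand of chromosome II from 10560036 to 10563407 (WBGene00007352). Its peak spanned chrII:10563466-10563686, in intergenic sequence, with the summit 178 bp upstream of the gene start. The deposited signal was 254.5 in the pooled list, 111.4 in replicate 2 and 139.9 in replicate 3, and these values rank regions within a list only. The region ranked 6 in the pool, 10 in replicate 2 and 5 in replicate 3, so both libraries placed it among their 10 strongest regions. Without mitochondrial regions it was number 2 of 29978 pooled regions, and it was number 1 of 4580 on chromosome II. Among the 10579 protein-coding genes with a pooled region within 1000 bp, only 1 had a better-ranked one.

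The summit of this peak was placed to within a few bases by both libraries. It had the same position in replicate 2 as in the pool, and in replicate 3 it was 8 bp away. The regions were also narrow, at 221 bp in the pool, 177 bp in replicate 2 and 170 bp in replicate 3, against list medians of 296, 310 and 270 bp. No other protein-coding start lay within 1000 bp of the summit. The nearest was that of C06A1.6, 1093 bp away and on the same strand. The start of a snoRNA gene inside *cdc-48.1*, C06A1.9, was 521 bp from the summit. Of the thresholded peaks with any protein-coding start within 1000 bp, 52.7% had exactly 1.

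A second, weak pooled region lay inside *cdc-48.1*, with its summit 371 bp downstream of the start. That summit was in an intron and within the snoRNA gene C06A1.9, which the intron holds. This region ranked 24288 with a signal of 7.20 and a −log10 q-value of 0.21, and may be background. Replicate 3 had a region with its summit 332 bp downstream, in intron sequence outside C06A1.9, at rank 16751. Replicate 2 had none there within the distance. The nearest replicate 2 region outside the distance had its summit 1079 bp downstream and ranked 18162.

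The duplicate gene *cdc-48.2* showed a different picture. It lies on the plus strand of chromosome II from 8138496 to 8141230 (WBGene00008053). Its coding sequence of 2430 bases matched the 2427 bases of *cdc-48.1* at 77.0% of 2405 aligned positions. No pooled, thresholded or replicate 3 region had a summit within 1000 bp of its start. Replicate 2 had 1, just inside the limit at 996 bp upstream, with a signal of 3.33 and rank 12601 of 20291. The nearest pooled region beyond the limit was 4903 bp downstream, past the end of the gene, with a signal of 22.1 and rank 748. In replicate 2 the nearest was 1510 bp upstream at rank 9514, and in replicate 3 it was 8358 bp downstream at rank 27670. All 36-base windows within 1000 bp of the *cdc-48.2* start occur once in the genome. Around *cdc-48.1*, 94.5% of such windows were unique, and the repeated ones lay between 797 and 1000 bp upstream, outside the peak.

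**Figure D1:**
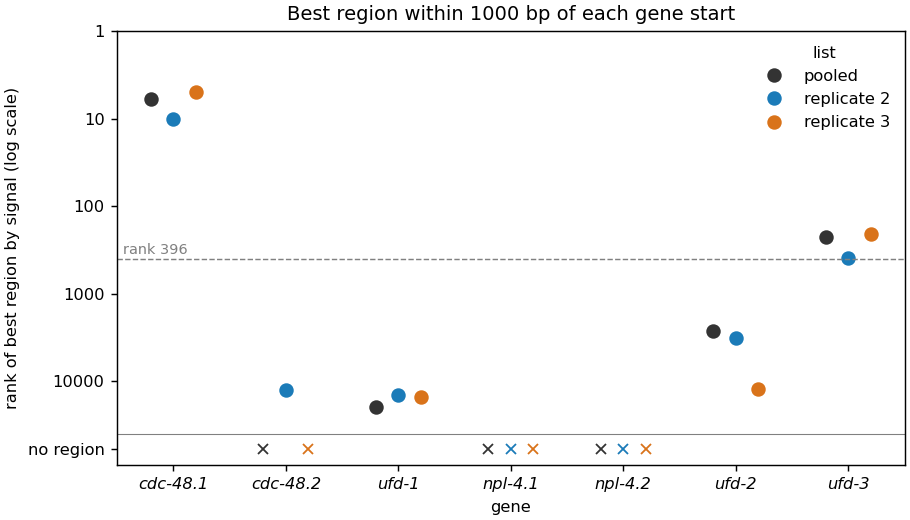
Rank of the best region within 1000 bp of each gene start (log scale, rank 1 at the top) in the pooled list and in each replicate list; crosses mark lists with no such region and the dashed line marks rank 396, the number of thresholded peaks. The *cdc-48.1* points lie between ranks 5 and 10, the *ufd-3* points between 207 and 393, and the other genes lie below the line or have no region.

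UFD-1 and NPL-4 form the main substrate adaptor of CDC-48, and none of their 3 genes had a thresholded peak. The *ufd-1* gene is on the minus strand of chromosome IV, from 12329408 to 12330890 (WBGene00006733). Its pooled region, chrIV:12330957-12331252, had a summit 215 bp upstream of the start, within the 3′ UTR of the neighbouring gene F19B6.1. The signal was 7.98 in the pool, at rank 19885, and that of the overlapping region was 3.00 in replicate 2, at rank 14224, and 5.71 in replicate 3, at rank 20729. All 3 ranks lie well down their lists of 30000, 20291 and 30000 regions. The best-ranked replicate 3 region near *ufd-1* was a different one, 571 bp downstream in a coding exon, at rank 15150.

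The NPL-4 genes cannot be read with confidence. *npl-4.1* (WBGene00019120, chromosome II, 5631351 to 5633284) and *npl-4.2* (WBGene00019121, 5622889 to 5624959) are nearby copies in the same orientation whose starts are 8462 bp apart, and their coding sequences of 1587 bases were 99.5% identical. From 1000 bp upstream to 1000 bp downstream of the starts, 1 of 2001 bases differed. Only 1.83% of the 36-base windows and 2.56% of the 50-base windows there occur once in the genome, against 94.5% to 100% of the 36-base windows at the other 5 genes. Neither the read length nor the treatment of reads that match more than 1 place is stated in the labels or the text deposited with the samples. The lack of regions within 1000 bp of both starts is therefore no measure of LIN-35 signal. Outside the limit, the nearest *npl-4.1* region was 1821 bp downstream at rank 29289 in replicate 3, 2108 bp upstream at rank 13525 in replicate 2 and 3149 bp upstream at rank 27167 in the pool. The nearest *npl-4.2* region was 2298 bp downstream at rank 27498 in the pool, 3742 bp upstream at rank 21801 in replicate 3 and 3765 bp upstream in replicate 2, where it ranked 1282 with a signal of 9.67. Both genes are divided from a divergent neighbour by a short interval, *npl-4.1* from F59E12.6 by 400 bp and *npl-4.2* from *eif-3.L*, a translation initiation factor subunit gene, by 406 bp.

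Of the enzymes and cofactors that act on the ubiquitin chain, *ufd-3* had a thresholded peak and *ufd-2* did not. The *ufd-3* gene is on the plus strand of chromosome II from 9940753 to 9944107 (WBGene00007333). Its peak, chrII:9940442-9940737, had the summit 163 bp upstream of the start, in the 321 bp between C05C10.5 and *ufd-3*, which lie on the same strand. The signal was 41.6 in the pool, 15.6 in replicate 2 and 22.4 in replicate 3, with ranks of 226, 393 and 207. The replicate 2 rank was thus just within the number of thresholded peaks. The summit was at the same base in replicate 2 as in the pool and 36 bp away in replicate 3. By its best region *ufd-3* was number 277 of the 10579 genes.

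A stronger thresholded peak lay further upstream, outside the limit of 1000 bp. Its summit was 1600 bp upstream of *ufd-3*, near the divergent starts of C05C10.5 and C05C10.7, with a pooled signal of 50.8 and rank 166. The nearest replicate 2 and replicate 3 summits, 1694 and 1626 bp upstream, ranked 137 and 213. Between these peaks, replicate 2 alone had a region 564 bp upstream of *ufd-3* at rank 1964. The pool and replicate 3 had weak regions just outside the limit, at 1031 and 1045 bp upstream and ranks 17442 and 20738.

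The *ufd-2* gene is on the plus strand of chromosome II from 8062741 to 8066193 (WBGene00006734), and its values differed between the libraries. The best pooled region, chrII:8062371-8062666, had a summit 222 bp upstream, a signal of 15.3 and rank 2684, below the threshold at rank 396, where the last peak had a signal of 29.96 and the next region 29.92. Replicate 2 had an overlapping region with a signal of 6.94 and rank 3179. Replicate 3 had no overlapping region, and its best within 1000 bp was 591 bp downstream, in a coding exon, with a signal of 7.13 and rank 12283. The *ufd-2* value upstream of the start is therefore seen in 1 of 2 libraries. The pooled list also held the exonic region, at rank 11037, and one 857 bp upstream, at rank 16763.

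**Figure D2:**
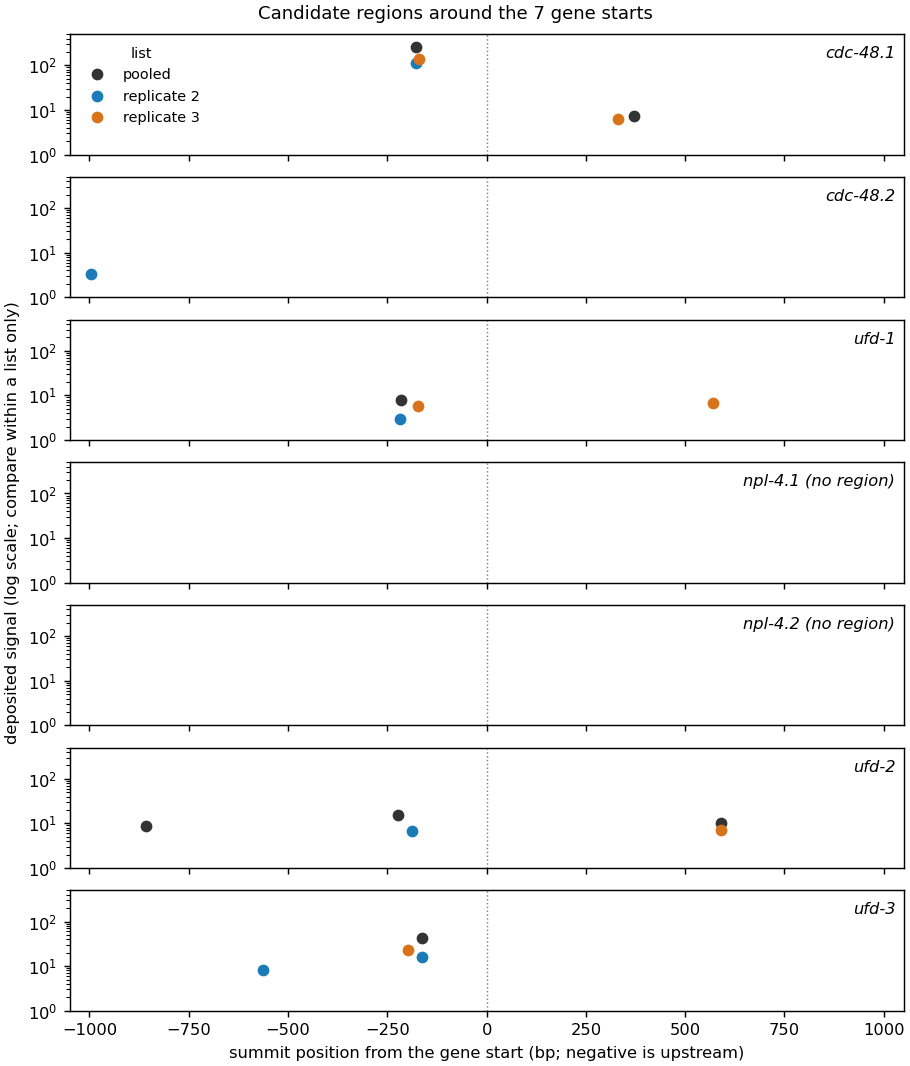
Signal of each candidate region (log scale, to be compared within a list only) by the position of its summit from the gene start, for the 7 genes. The strongest pooled region of *cdc-48.1*, *ufd-1*, *ufd-2* and *ufd-3* lies 163 to 222 bp upstream of the start, while *cdc-48.2* has 1 point at 996 bp upstream and the *npl-4* genes have none.

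Over the group, 2 of 7 genes had a thresholded peak within 1000 bp, against 2.47% of all protein-coding genes. Nothing is read from that count, because the list was drawn up with the *cdc-48.1* peak known. A pooled candidate region was present at 4 of 7 genes, against 53.0% of all, at 5 of 7 in replicate 2, against 40.0%, and at 4 of 7 in replicate 3, against 52.9%. Counting only the 396 strongest regions of each library gave the same 2 genes, *cdc-48.1* and *ufd-3*, in replicate 2 (2.22% of all genes) and in replicate 3 (2.11% of all genes). Of all protein-coding genes, 1.16% had such a region in both libraries. No region in any list was within 1000 bp of 2 of the 7 genes, the *npl-4* copies, against 25.9% of all genes.

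The position of the best pooled summit was alike in the 4 genes that had one, at 163 bp upstream for *ufd-3*, 178 bp for *cdc-48.1*, 215 bp for *ufd-1* and 222 bp for *ufd-2*. Over all genes with a pooled region within 1000 bp, 22.5% had the best summit 1 to 300 bp upstream, and over genes with a thresholded peak 61.9% did. The *ufd-1* summit lay in this interval although its rank was low, and a region of such rank may be background. The likeness of position is that of the pooled list. In replicate 3 the best-ranked regions of *ufd-1* and *ufd-2* were 571 and 591 bp downstream of their starts.

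**Figure D3:**
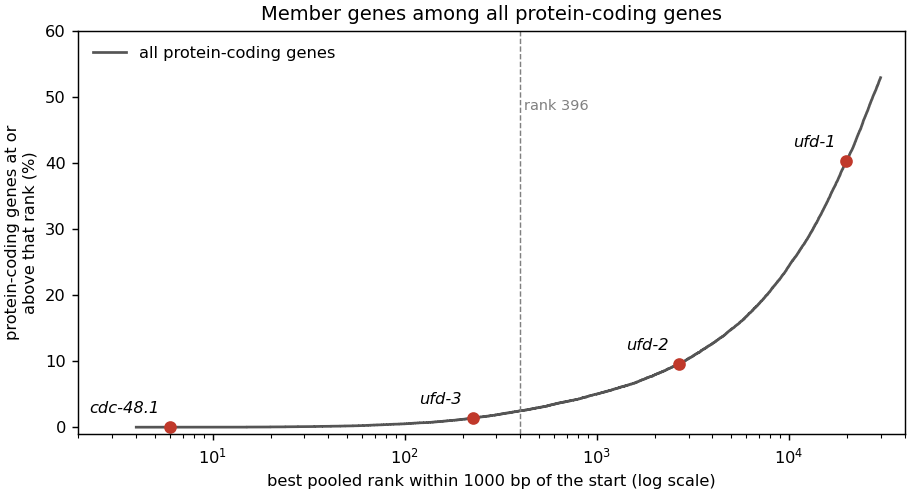
Share of all 19973 protein-coding genes (vertical axis, %) whose best pooled region within 1000 bp has at least a given rank (horizontal axis, log scale), with the 4 member genes that have a pooled region in red. *cdc-48.1* is at the far left at rank 6, *ufd-3* at 226 lies left of the dashed line at rank 396, and *ufd-2* and *ufd-1* lie at 2684 and 19885.

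The E2F motif, chosen with earlier results of these data known, was found at 2 of the 4 summits, and nothing is read from that count. It was present within 100 bp of the *cdc-48.1* and *ufd-3* summits and absent from the *ufd-2* and *ufd-1* summits. Over the list, 52.1% of 376 nuclear thresholded peaks held it in the same window, against 7.24% of the nuclear pooled regions below the threshold at any location. Of the 9103 best pooled regions within 1000 bp of a protein-coding start, thresholded ones included, 9.56% held it. The *ufd-3* match, TTCCCGC, begins 153 bp upstream, and its nearest base is 10 bp from the summit. It reads on the gene's strand. In the 500 bp upstream of the start, *cdc-48.1* and *ufd-3* had 1 E2F match each and the other 5 genes had 0, including *cdc-48.2*, and 15.2% of all protein-coding genes had at least 1.

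CHR matches were more common. The *cdc-48.1* summit had 3 within 100 bp, the *ufd-3* summit 2, and the *ufd-2* and *ufd-1* summits 0. At least 1 was present at 73.9% of nuclear thresholded peaks and 52.0% of the regions below the threshold. The share was 53.8% of the best pooled regions within 1000 bp of a protein-coding start. All 7 genes had at least 1 in the 500 bp upstream, as did 86.4% of all genes. In the *ufd-3* sequence shown above, a CHR match stood directly before the E2F match, with 0 bases between them and on the same strand. This arrangement was seen before its frequency was counted. An E2F and a CHR match with at most 1 base between them, in any order and orientation, occurred at 28 of the 196 nuclear thresholded peaks that had an E2F match (14.3%) and at 7.05% of the regions below the threshold that had one. In the 500 bp upstream of protein-coding genes it occurred at 6.49% of the 3034 genes with an E2F match there. These letters are matches in the genome and not measured contacts.

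The 3 genes most like *cdc-48.1* in their ranks were *rpl-3*, *rpl-35* and K01G5.10. Likeness was the largest difference in log10 rank over the pooled list and the 2 libraries, among the 4160 genes (20.8% of all) with a region within 1000 bp in each. *rpl-3*, which encodes a large ribosomal subunit protein and lies on chromosome III, differed by at most 0.40, with ranks of 4, 4 and 9 in the pool, replicate 2 and replicate 3. *rpl-35*, another such gene on the same chromosome, differed by at most 0.48, with ranks of 11, 15 and 15. K01G5.10 came next at 0.68, with ranks of 15, 16 and 24. Its pooled region is 724 bp upstream of it, and the nearest start is that of *tasp-1*, 61 bp away. The region thus lies within 1000 bp of *tasp-1* too, whose best pooled rank is also 15. *tasp-1* may share the replicate ranks as well, as genes of equal likeness were taken in order of name.

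Other genes of the pathway were examined by role, and none of the 20 that matched the annotation had a thresholded peak within 1000 bp, against 2.47% of all genes. A pooled region was present at 10 of 20, against 53.0% of all genes. Among the 9 adaptors and partner enzymes, 6 had one. The best ranked was that of *chn-1*, 130 bp upstream of its start, at rank 476 in the pool. This gene encodes the relative of the mammalian ligase CHIP that works with UFD-2. The best regions near *chn-1* ranked 1736 in replicate 2 and 5552 in replicate 3. The region of *ubxn-1*, which encodes a UBX-domain adaptor, ranked 659 in the pool. The best regions near *ubxn-1* ranked 14897 in replicate 2 and 160 in replicate 3, so a high-ranked region was listed in 1 of 2 libraries. Best regions of these pathway genes were taken in each list separately, and their overlap with the pooled region was not checked. Of the 20 genes, 2 had a pooled region of rank 1000 or better, against 5.03% of all genes.

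Of the 6 genes of endoplasmic reticulum-associated degradation, 2 had a pooled region, against 53.0% of all genes. They were *cup-2*, a derlin gene, at rank 22969, and *sel-11*, the gene for the HRD1 ligase, at rank 28494, and replicate 3 had no region at either. Of the 5 replisome and chromosome genes, 2 had one. They were *sld-5*, encoding a GINS subunit of the helicase, at rank 16300, and *cdt-1*, the licensing factor gene, at rank 18803. Replicate 2 had no region at either. In all, replicate 2 had a region at 3 of the 6 and 1 of the 5 genes, against 40.0% of all genes. Replicate 3 had one at 1 of the 6 and 4 of the 5, against 52.9%. The replisome gene *lrr-1* had a region in each library, at ranks 5366 and 23334, but none in the pool.

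**Figure D4:**
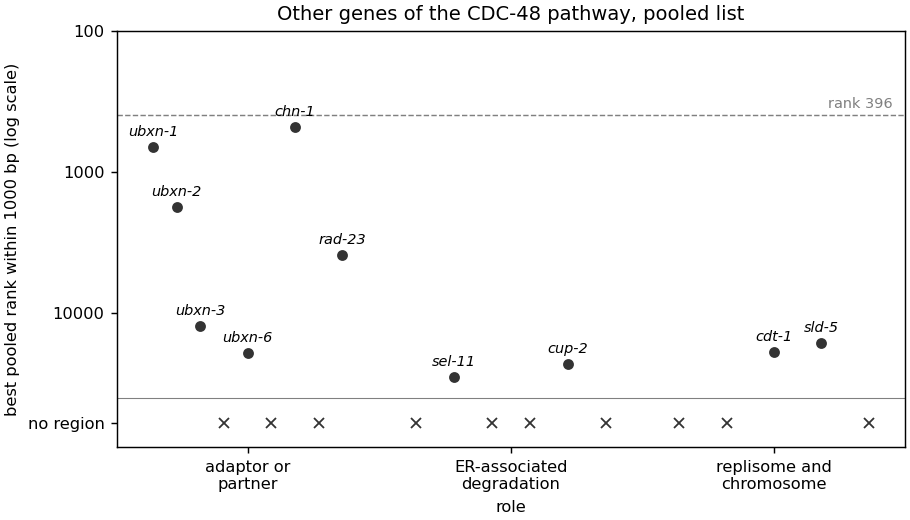
Best pooled rank within 1000 bp of the start (log scale) for 20 other genes of the pathway in 3 roles; crosses are genes with no pooled region and the dashed line marks rank 396. All points lie below the line, *chn-1* at 476 and *ubxn-1* at 659 being nearest to it.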

How the data were processed

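LIN-35 ChIP-seq was available as lists of regions for 2 libraries and their pool. Per the text deposited with the samples, candidate regions were called for each replicate and for the pooled alignments with a control alignment, and the thresholded list was derived from those 3 lists. None of the aligner, caller, IDR threshold or read length is given in the sources used here. The authors' signal per region was used to rank regions within a list, and its scale is not stated. The deposited lists also hold a −log10 q-value by column order, which is given for some pooled regions and was not used to rank or select. Only the ce11 lists were used. Gene starts came from Ensembl release 115 and sequence from RefSeq WBcel235; all region ends lay within its chromosomes. Of 21 other pathway names, 1 (*cdc-45*) did not match.

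A region belonged to a gene when its summit lay within 1000 bp of the start. Percentages of all genes are over protein-coding nuclear genes. The 7 genes, the pathway list and the motifs were chosen with earlier results of these data known, and the 500 bp windows, the count of CHR matches beside E2F matches and the uniqueness of 36-base and 50-base windows were chosen after these values were seen. All members were named, with neighbouring starts within 1000 bp of a best summit, pathway genes with a peak or the 2 best ranked of each role, and the 3 genes closest to *cdc-48.1* in rank. Coding sequences were aligned globally (match 1, mismatch -1, gap opening -3, extension -0.5). The joins and the motif search were tested on simulated data. Python 3.11.15, pandas 2.3.3, numpy 2.4.6, Biopython 1.88 and matplotlib 3.10.9 were used. Coordinates are 1-based. The bases at the *cdc-48.1* peak are not reported here.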

Additional observations from a re-analysis of the deposited data

How the results depend on the processing

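The count of 2 genes with a thresholded peak was the same with distances of 250, 500 and 2000 bp, with any base of the region in place of the summit, with the start of any transcript, with the nearest gene only, with the 1000 strongest pooled regions and with either library alone (from 2 to 2). The 2 summits, 163 and 178 bp upstream, lie within 250 and 500 bp, so those distances were bound to give the same count. The 2000 bp, any-base and 1000-region settings could add genes but drop none. The count was 1 with the 198 strongest peaks, which leaves out *ufd-3* at rank 226 by construction. The 4 genes with a pooled region stayed 4 at the 3 other distances. With best summits 163 to 222 bp upstream, this was bound to hold at 250 and 500 bp. With 1 library alone, an alternative added after seeing the data, the count ran from 4 to 5. The *cdc-48.1* signal was 111.4 to 139.9 in the single libraries against 254.5 in the pool, on scales that may differ between lists. With windows of 50 or 200 bp or an E2F core of 6 bases, 2 summits held the motif. At 2000 bp the best *ufd-3* rank was 166 in place of 226. The *ufd-2* rank was 12283 without replicate 2. No paired analysis was possible because both libraries belong to 1 group. Depth per library is unknown, so a gene without a region is one for which none was listed, not one shown to lack LIN-35.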
